A study of Homo sapiens with 4 samples.

Results

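8505C is an established line of anaplastic thyroid carcinoma, the undifferentiated form of thyroid cancer. Its transcriptome with a vector for overexpression of CRABP1 was compared with that of the same line with an empty vector. Each side was 1 library of total RNA. The series holds 4 libraries, the other 2 being FTC-133 cells, a follicular thyroid carcinoma line, with the same pair of vectors. The labels give the vectors as transfected and name no further treatment, no promoter, no clone, no time after transfection and no number of cultures. Values are TPM, that is, read numbers per gene length brought to a common sum in every library. Of 58884 genes in the table, 17561 had a mean of at least 1 TPM over the 2 libraries of 8505C, and these are called measured. A log2 ratio is log2 of TPM plus 1 with CRABP1 over TPM plus 1 with vector, whereas a fold printed with an interval is the plain ratio of TPM. A gene is past 2-fold where its log2 ratio is at least 1 above or below 0, which understates low genes. Since each group is a single library, nothing could be tested and no replicate error exists, so genes are called higher or lower between these 2 libraries only. Intervals are 95% Clopper-Pearson limits from recovered reads and cover counting error alone.

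CRABP1 is a small cytoplasmic protein that binds retinoic acid and is one of the carriers that pass it between the enzymes, nucleus and cytoplasm of a cell. Retinoic acid acts through nuclear receptors of the RAR and RXR families. Among the pathways described below, ATF4 is the transcription factor of the amino acid response, which is translated when a kinase marks the initiation factor eIF2, and it drives genes that import, make and charge amino acids. NF-kB is the factor behind most inducible chemokine and cytokine genes, and IkB proteins, themselves among its targets, hold it in the cytoplasm.

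CRABP1 (ENSG00000166426; GRCh38, chromosome 15, 78340324 to 78348230, plus strand) was listed at 0 TPM with vector and at 537 TPM with the CRABP1 vector, from 2706 reads. The level with CRABP1 was at least 905-fold above the floor of 3 reads, and it ranked 176 among the genes of that library. Other annotated genes share 47.2% of its exon bases. The overexpressed gene is thus present in the library of 8505C labelled for it and listed at 0 in the other.

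The markers of cell identity named here were each present, or low or absent, in both libraries alike. Of the thyroid genes, the transcription factor NKX2-1 stood at 118 and 113 TPM, the vector library being given first here and below, and HHEX at 22.4 and 27.8 TPM. PAX8, another thyroid transcription factor, was at 0.24 and 0.16 TPM, and the receptor gene TSHR and the iodide carrier gene SLC5A5 were listed at 0 in both. The epithelial adhesion gene CDH1 was listed at 0 in both, EPCAM was at 0.55 and 0.23 TPM, and the keratins KRT8 and KRT18 were at 564 and 496 TPM and at 1039 and 869 TPM. The 5 measured epithelial markers were all below 0, with a median of -0.26 and a sum of 2232 and 1856 TPM. Vimentin, VIM, a mesenchymal filament protein, was at 969 and 884 TPM. The leukocyte marker PTPRC was at 0.15 and 0.19 TPM and the fibroblast collagen gene COL1A2 at 0.035 and 0.053 TPM. Other members of both lists stood higher. Leukocyte markers summed to 58.6 and 30.1 TPM, nearly all of it CD14, and fibroblast markers to 71.4 and 87.3 TPM.

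Most genes differed little. Over all measured genes the median log2 ratio was 0.02, and 649 genes (3.7%) were at least 2-fold higher and 715 (4.07%) at least 2-fold lower. Genes under 20 reads over both libraries held 568 and 598 of these. Of 12011 protein-coding genes that held 20 reads or more, 29 (0.241%), CRABP1 among them, were at least 2-fold higher and 60 (0.5%) at least 2-fold lower. In the same set 54.8% had a ratio above 0 and 45.2% below 0, and 1.68% and 2.12% were at least 1.5-fold higher and lower. Counts of list members below are to be read against these shares. The standard deviation of the log2 ratio across genes was 0.40 at 1 to 2 TPM, 0.21 at 30 to 100 TPM and 0.17 above 300 TPM. It was 0.34 at 100 to 300 TPM, a range that includes CRABP1. The range of 30 to 100 TPM includes MCCD1, at a log2 ratio of -6.16. By length the standard deviation was 0.41 among the shortest genes, CRABP1 and MCCD1 included, and 0.21 among the longest.

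**Figure D1:**
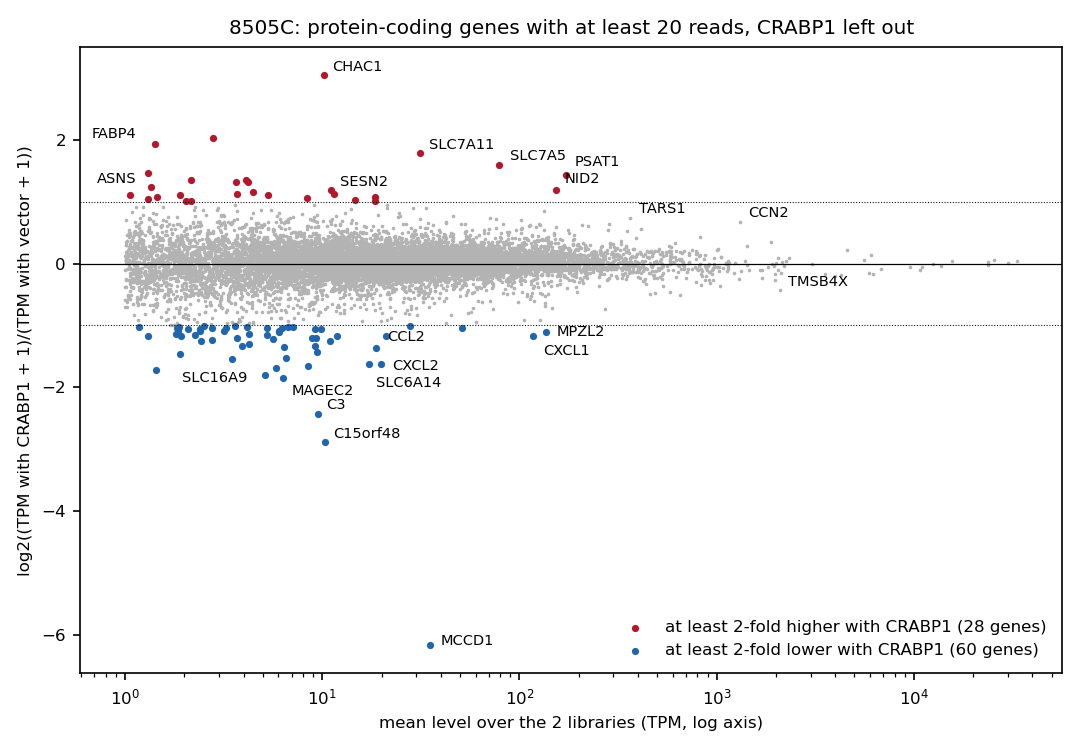
Log2 ratio of CRABP1 against vector in 8505C (vertical axis) by mean TPM (horizontal log axis), each point a protein-coding gene with at least 20 reads, without CRABP1. The 28 red and 60 blue points lie past 2-fold, and CHAC1 and MCCD1 lie farthest from 0 on either side.

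Genes of the amino acid response were among those with the highest ratios. CHAC1, an enzyme that degrades glutathione, was at 1.44 TPM with vector (15 reads) and 19.04 TPM with CRABP1 (199 reads). Its fold was 13.2 (7.88 to 24.2), and its log2 ratio of 3.04 was the highest of any protein-coding gene held to 20 reads other than CRABP1. Among the 16 measured ATF4 and CHOP factors and stress regulators, 14 had a ratio above 0 (54.8% among all protein-coding genes held to that count), 3 passed 2-fold upward (CHAC1, SESN2 and ADM2), 0 passed it downward and the median was 0.50. SESN2, a sensor that restrains mTORC1 when leucine is low, was at 6.42 and 15.8 TPM (2.47-fold higher, 1.97 to 3.09). ADM2, a secreted peptide, was at 1.10 and 3.22 TPM (2.93-fold higher, 1.82 to 4.86). ATF4 itself was at 337 and 495 TPM (1.47-fold higher, 1.41 to 1.53), its binding partner CEBPG at 23.2 and 44.2 TPM (1.91-fold higher, 1.72 to 2.13) and ATF3 at 5.06 and 9.22 TPM. Members of the same list differed in size and direction. The factor ATF5 was lower, at 12.5 and 6.61 TPM (1.89-fold lower, 1.48 to 2.44). DDIT3, which encodes the pro-apoptotic factor CHOP, had a log2 ratio of 0.24, with an interval of its fold, 0.924 to 1.53, that spans 1.

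Letters of the C/EBP-ATF response element, the composite site that ATF4 binds with a C/EBP partner, were looked for in the 250 bases before the start of each gene in the RefSeq promoter table (GRCh38.p14). The motif TGATGNAA on either strand was present in 3.14% of all 35116 windows and in those of 3.89% of 27305 genes. It was present for 3 of 14 ATF4 and CHOP factors and regulators with a window, 1 of 13 amino acid transporters, 3 of 14 synthesis and folate enzymes, 3 of 16 cytosolic and 1 of 14 mitochondrial aminoacyl-tRNA synthetases. The search was chosen after the values of these lists were known, and a match describes letters only. Of the list members with a match, ATF3, GARS1, GOT1, IARS1, MTHFD1L and YARS2 are not printed. Only genes that were higher with CRABP1 are printed, so a link between motif and direction cannot be read from them and was not tested. The stretches below show the motif, in capitals, for 5 such genes. They lie at chr15:40953242-40953289 for CHAC1 (plus strand), chr7:97872449-97872496 for ASNS (minus), chr19:33374051-33374098 for CEBPG (plus), chr16:70289666-70289713 for AARS1 (minus) and chr19:46784884-46784931 for SLC1A5 (minus), each read 5′ to 3′ on the strand of its gene.
CHAC1: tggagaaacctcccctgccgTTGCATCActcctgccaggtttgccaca
ASNS: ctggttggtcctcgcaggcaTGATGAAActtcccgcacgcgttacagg
CEBPG: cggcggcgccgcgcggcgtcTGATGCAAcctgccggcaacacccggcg
AARS1: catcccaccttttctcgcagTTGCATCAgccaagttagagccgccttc
SLC1A5: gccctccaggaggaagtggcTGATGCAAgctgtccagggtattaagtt
In CHAC1 and AARS1 the motif stands on the other strand, so its reverse complement is printed. Its first base lies 209, 68, 42, 187 and 97 bases before the start in the order printed.

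Among transporters that bring in amino acids, SLC7A11 and SLC7A5 had the highest ratios. SLC7A11, the cystine importer, was at 13.6 and 49.2 TPM (3.62-fold higher, 3.32 to 3.95). SLC7A5, which imports leucine and other large neutral amino acids, was at 38.7 and 119 TPM (3.08-fold higher, 2.86 to 3.32), and SLC3A2, the heavy chain that both carriers need, at 52.8 and 89.0 TPM (1.69-fold higher, 1.58 to 1.80). Cationic and neutral carriers were higher by less. SLC7A1 was at 43.7 and 63.0 TPM, SLC1A5, a glutamine carrier, at 78.1 and 115 TPM, and SLC1A4 at 3.65 and 6.14 TPM. In the opposite direction, SLC6A14, a concentrative carrier of broad range, was at 26.7 TPM from 613 reads with vector and 7.999 TPM from 183 reads with CRABP1 (3.33-fold lower, 2.83 to 3.96). SLC1A1, a glutamate carrier, was at 2.32 and 0.992 TPM (2.34-fold lower, 1.36 to 4.17). In all 12 of 16 measured transporters were above 0, against 54.8% of protein-coding genes, with 2 past 2-fold upward and 1 downward. Their median was 0.24, or 0.07 with no filter on low values.

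Enzymes that make serine, glycine, asparagine and proline, with those of the folate cycle, were above 0 in 16 of 20 cases, with a median of 0.27 and 2 past 2-fold, PSAT1 and ASNS. Of all protein-coding genes held to 20 reads, 54.8% were above 0 and 0.241% at least 2-fold higher. PSAT1, the transaminase of serine synthesis, was at 93.1 and 254 TPM (2.72-fold higher, 2.54 to 2.93). PHGDH, the first enzyme of that pathway, was at 17.8 and 30.6 TPM (1.72-fold higher, 1.58 to 1.87), and the last, PSPH, at 23.5 and 29.8 TPM (1.27-fold higher, 1.09 to 1.47). ASNS, which makes asparagine, was low in both libraries, at 0.402 TPM from 9 reads and 2.30 TPM from 52 reads (5.72-fold higher, 2.83 to 13.4). Exons of other annotated genes share 44.6% of its exon bases, so its level is uncertain. Among folate enzymes MTHFD2 of mitochondria was at 64.0 and 100.2 TPM (1.57-fold higher, 1.47 to 1.67), whereas SHMT1 of the cytosol had a log2 ratio of -0.10. CTH, which makes cysteine from methionine-derived cystathionine, was the lowest of the list at -0.20.

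Aminoacyl-tRNA synthetases, which load amino acids onto their tRNAs, are encoded by separate genes for the cytosol and the mitochondria. Of 20 cytosolic members 15 were above 0, 5 were at least 1.5-fold higher, 0 passed 2-fold and the median was 0.17. The 5 were YARS1 at 33.8 and 58.7 TPM, MARS1 at 18.1 and 31.4 TPM, TARS1 at 273 and 457 TPM (1.68-fold higher, 1.63 to 1.72), AARS1 at 98.2 and 154 TPM and GARS1 at 88.2 and 135 TPM. Others of the same family differed by less than counting error, such as HARS1 at 38.4 and 38.6 TPM, or were slightly lower, such as WARS1 at 72.7 and 66.8 TPM and FARSA at -0.17. The 17 mitochondrial members had a median of 0.04, with 10 above 0, from PARS2 at 0.67 to FARS2 at -0.56.

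Other stress programmes were given by their own lists. The 25 genes of the unfolded protein response of the endoplasmic reticulum had a median of -0.03, with 11 above 0 and 0 past 1.5-fold either way. HSPA5, the main chaperone of that compartment, was at 736 and 693 TPM, and XBP1 at 99.9 and 106 TPM. Heat shock proteins had a median of 0.10 with 15 of 19 above 0, NRF2 targets 0.13 with 19 of 26 above 0, and p53 targets 0.05 with 12 of 23 above 0. Of all protein-coding genes held to 20 reads 54.8% were above 0, near the share of the p53 targets. Metallothioneins, which bind metal ions, had a median of -0.23, with 3 of 3 below 0. NQO1, a quinone reductase, was at 221 and 346 TPM (1.57-fold higher, 1.504 to 1.635). AKR1C3, an aldo-keto reductase, was at 9.90 and 5.24 TPM (1.89-fold lower, 1.5 to 2.4).

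Chemokines, the secreted proteins that draw leukocytes, were lower with CRABP1 in all 7 measured cases, 3 of them past 2-fold, with a median of -0.99. Among all protein-coding genes held to 20 reads, 45.2% were below 0 and 0.5% at least 2-fold lower. CXCL1 was at 162 TPM with vector from 1069 reads and 71.4 TPM with CRABP1 from 469 reads (2.27-fold lower, 2.04 to 2.54), and CXCL8 at 168 and 88.3 TPM (1.90-fold lower, 1.76 to 2.05). These are neutrophil chemokines, as are their neighbours CXCL2, at 30.7 and 9.31 TPM, and CXCL3, at 2.57 and 0.80 TPM (3.21-fold lower, 1.48 to 7.71). CCL2, which draws monocytes, was at 27.5 and 10.1 TPM (2.72-fold lower, 2.16 to 3.44). CCL28 and CXCL16 had the smallest ratios, -0.51 and -0.47, and the interval of CXCL16 reaches 0.987. A further 11 listed chemokines were below the limit of 1 TPM, 7 of them at 0 in both libraries.

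The 4 neutrophil chemokines lie in a cluster on chromosome 4, and their promoters share the letters of a kB site, the sequence that NF-kB binds. The motif GGAATTTCC on either strand was present in 0.413% of the 35116 windows, or for 0.502% of 27305 genes. It was present for 4 of 5 measured chemokines with a window, 5 of 22 NF-kB subunits and regulators, 1 of 11 other NF-kB targets and 0 of 10 complement genes. Each stretch below carries it in capitals and is read 5′ to 3′ on the strand of its gene, at chr4:73869295-73869343 for CXCL1 (plus strand), chr4:74099244-74099292 for CXCL2 (minus), chr4:74038739-74038787 for CXCL3 (minus) and chr4:73740458-73740506 for CXCL8 (plus).
CXCL1: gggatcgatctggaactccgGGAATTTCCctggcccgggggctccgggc
CXCL2: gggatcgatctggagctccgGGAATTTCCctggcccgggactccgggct
CXCL3: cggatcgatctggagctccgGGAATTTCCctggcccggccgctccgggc
CXCL8: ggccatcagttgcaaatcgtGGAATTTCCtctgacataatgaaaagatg
The first base of the motif lies 78, 77, 78 and 91 bases before the start. Each of these 4 genes was lower with CRABP1, as were all 7 measured chemokines. This motif too was chosen after values were seen, and a match describes letters only. The CXCL1 stretch matches that of CXCL3 at 45 of 49 bases and that of CXCL8 at 22 of 49. CXCL1, CXCL2 and CXCL3 are close copies of each other, so reads in their shared parts are less certain.

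The list of interleukins, colony-stimulating factors and their receptors was below 0 in 20 of 27 measured cases, against 45.2% of protein-coding genes. Its median was -0.26, with 0 past 2-fold. IL15, a growth factor of natural killer cells, was at 6.21 and 2.70 TPM (2.30-fold lower, 1.82 to 2.90). IL1B was at 34.9 and 21.2 TPM (1.65-fold lower, 1.43 to 1.89), its receptor IL1R1 at 8.36 and 4.57 TPM and IL6 at 31.1 and 20.8 TPM (1.495-fold lower, 1.26 to 1.78). Higher members were the receptors LIFR, at 82.5 and 122 TPM, and IL20RB, at 2.33 and 4.12 TPM. Outside the list, IL23A, a subunit of interleukin 23, was past 2-fold at 3.17 and 1.004 TPM, from 19 and 6 reads.

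Within NF-kB itself 4 subunits had small ratios, RELB was at -0.50 and several feedback genes were lower. RELA was at 55.4 and 53.4 TPM, REL at 2.88 and 2.98 TPM and NFKB1 at 24.7 and 21.1 TPM, and NFKB2 had a log2 ratio of -0.21. The inhibitor NFKBIA was at 78.4 and 50.6 TPM (1.55-fold lower, 1.40 to 1.72), NFKBIZ at 72.6 and 43.8 TPM (1.66-fold lower, 1.55 to 1.78) and BCL3 at 50.1 and 32.4 TPM. TNFRSF1B, a receptor for tumour necrosis factor, had the lowest ratio of this list, at 7.44 and 3.60 TPM. Of the list's 26 members 19 were below 0, 4 of them at least 1.5-fold lower and 0 as much higher, with a median of -0.10. Among all protein-coding genes held to 20 reads, 45.2% were below 0 and 2.12% at least 1.5-fold lower. Of 15 other targets 14 were below 0, with a median of -0.42, a mean of -0.71 and 4 past 2-fold. These were C15orf48, G0S2, TNFAIP2 and SAA1, the last from fewer than 20 reads. G0S2, an inhibitor of lipolysis, was at 9.43 and 2.25 TPM, and TNFAIP2 at 16.8 and 6.90 TPM (2.44-fold lower, 2.04 to 2.93). C15orf48, which encodes a small mitochondrial protein, was at 18.9 and 1.68 TPM, and other genes share 32.5% of its exon bases. PTGS2, the inducible cyclooxygenase, and PTX3, a soluble pattern receptor, showed ratios of -0.01 and -0.05.

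Complement genes of the classical and alternative pathways were lower together. C3, the protein on which the pathways meet, was at 16.7 TPM with vector from 707 reads and 2.30 TPM with CRABP1 from 97 reads (7.27-fold lower, 5.87 to 9.08). The proteases C1R and C1S, which start the classical pathway, were at 12.7 and 5.61 TPM (2.26-fold lower, 1.89 to 2.74) and at 3.86 and 1.65 TPM (2.34-fold lower, 1.69 to 3.29). CFB of the alternative pathway was at 2.64 and 0.829 TPM (3.18-fold lower, 1.92 to 5.47), and C2 at 1.89 and 0.643 TPM. The near-identical copies C4A and C4B cannot be told apart with certainty and had ratios of -0.83 and -0.72. C5, at 4.09 and 6.52 TPM, and the membrane inhibitor CD55, at 147 and 175 TPM, were higher. Of 15 measured members 12 were below 0, against 45.2% of protein-coding genes, with a median of -0.72. They included 2 past 2-fold downward, against 0.5%. The median was -0.37 with no filter on low values and -0.14 over members with a mean of at least 5 TPM.

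Interferon response genes were below 0 in 25 of 38 cases with a median of -0.18, and 1, GBP2, passed 2-fold at 2.86 and 0.901 TPM. Of all protein-coding genes held to 20 reads, 45.2% were below 0 and 0.5% at least 2-fold lower. SAMD9L, a growth suppressor, was at 12.5 and 6.81 TPM (1.84-fold lower, 1.57 to 2.16). ISG15 and IRF9 went the other way, at 0.26 and 0.47. Genes that present antigen had a median of -0.16, with 12 of 16 below 0 and 0 past 1.5-fold, and HLA-B was at 174 and 137 TPM.

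**Figure D2:**
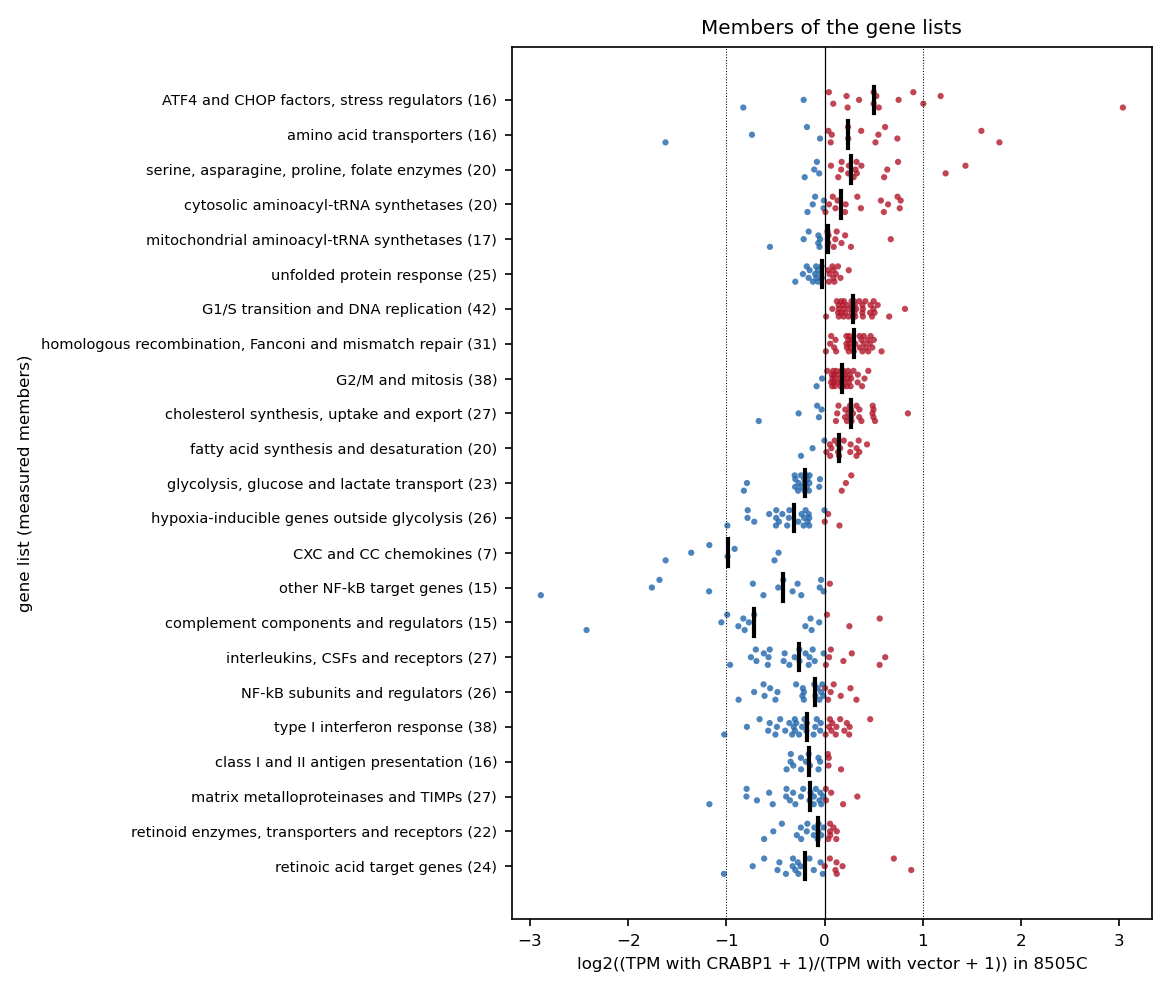
Log2 ratio in 8505C (horizontal axis) of each measured member of 23 gene lists (vertical axis, number of members in brackets, CRABP1 left out); red points are above 0, blue below, and black bars are medians. The G1/S and repair lists lie wholly above 0 and the chemokine list wholly below.

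Genes of proliferation had small ratios, nearly all of them above 0, against 54.8% of all protein-coding genes. All 42 measured genes of the G1/S transition and DNA replication had a ratio above 0, from CDK4 at 0.02 to E2F2 at 0.82, with a median of 0.29. All 31 genes of homologous recombination, Fanconi and mismatch repair were above 0 as well, with a median of 0.30. In the G2/M list 36 of 38 were above 0, with a median of 0.18, the exceptions being CCNA2 at -0.03 and CDC25B at -0.08. None of these passed 2-fold. E2F2 was at 4.07 and 7.94 TPM (1.95-fold higher, 1.55 to 2.47), and the licensing factor CDT1 at 32.8 and 52.3 TPM (1.60-fold higher, 1.43 to 1.78). RMI1, a subunit of the BLM helicase complex, was at 26.5 and 40.1 TPM, and FANCD2 at 17.3 and 24.9 TPM. CDK1, the mitotic kinase, was at 117 and 156 TPM (1.33-fold higher, 1.26 to 1.40). Inhibitors of cyclin-dependent kinases were also above 0, in 7 of 8 cases, with a median of 0.12 and CDKN1A at 14.502 and 17.1 TPM. Replication-dependent histone genes, which are transcribed in S phase, had a median of -0.44, and 11 of 15 were below 0.

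Genes of lipid synthesis lay mostly above 0 and those of sugar use mostly below. In the cholesterol list 22 of 27 were above 0, with a median of 0.27 and 0 past 2-fold. HMGCS1, a synthase early in the pathway, was at 94.8 and 172 TPM (1.81-fold higher, 1.72 to 1.91). SQLE was at 125 and 176 TPM, while ABCA1, which exports cholesterol, was at 3.54 and 1.86 TPM (1.91-fold lower, 1.505 to 2.436). Fatty acid genes were above 0 in 17 of 20 cases with a median of 0.14. The desaturase SCD was among the most abundant of them, at 1656 and 2117 TPM, and the synthase FASN was at 185 and 233 TPM.

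Of 23 glycolysis enzymes and sugar transporters 20 were below 0, with a median of -0.20. HK2, a hexokinase, was at 35.5 and 19.7 TPM (1.81-fold lower, 1.63 to 2.00) and the glucose transporter SLC2A3 at 72.0 and 41.2 TPM (1.75-fold lower, 1.63 to 1.87). The enzymes of the lower pathway differed by less, with PGK1 at 865 and 704 TPM and LDHA at -0.05. Among 26 other hypoxia-inducible genes 23 were below 0, with a median of -0.31 and 0 past 2-fold. LOX, which cross-links collagen, was at 182 and 110.3 TPM (1.65-fold lower, 1.58 to 1.72), PLOD2 at 538 and 382 TPM and EGLN3, an oxygen-sensing hydroxylase, at 4.97 and 2.47 TPM.

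Genes of retinoid handling, the known field of CRABP1, showed small ratios. Enzymes, transporters and receptors had a median of -0.07 with 7 of 22 above 0 and 0 past 2-fold. The receptors RARA and RARB were at 21.5 and 19.96 TPM and at 27.8 and 25.7 TPM, and RARG was lower, at 20.1 and 13.7 TPM (1.47-fold lower, 1.28 to 1.68). DHRS3, a reductase that returns retinal to retinol and is itself induced by retinoic acid, was at 119 and 77.6 TPM (1.54-fold lower, 1.43 to 1.66), and CYP26B1, which degrades retinoic acid, at 1.22 and 1.42 TPM. Targets of retinoic acid had a median of -0.20, 16 of 24 below 0 and 1, BTG2, past 2-fold at 9.91 and 4.36 TPM. TGM2, a transglutaminase, was at 565 and 405 TPM (1.39-fold lower, 1.37 to 1.42), while KLF4 was at 9.56 and 18.5 TPM (1.93-fold higher, 1.61 to 2.33). Besides CRABP1, 4 of the 6 other measured fatty acid and retinoid binding proteins were above 0. FABP4 was at 0 reads with vector and 20 with CRABP1 (at least 6.69-fold higher than the floor), and CRABP2 at 6.54 and 11.3 TPM (1.73-fold higher, 1.12 to 2.64).

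Matrix, protease and adhesion genes held members far apart in both directions. NID2, a basement membrane glycoprotein, was at 93.3 and 215 TPM (2.30-fold higher, 2.21 to 2.40), and other genes share 29.96% of its exon bases. CHAD and LUM, proteins of cartilage and stromal matrix, passed 2-fold upward from low levels, with LUM at 1.99 and 6.42 TPM. CEMIP, which degrades hyaluronan, was at 8.23 and 2.98 TPM (2.77-fold lower, 2.23 to 3.45), and the glypican GPC6 at 37.3 and 18.1 TPM. The collagen, proteoglycan and glycoprotein list had 16 of 44 above 0, against 54.8% of protein-coding genes, with a median of -0.15. It held 3 past 2-fold upward and 2 downward, against 0.241% and 0.5%. Among laminins LAMB3 was at 14.2 and 4.63 TPM (3.07-fold lower, 2.47 to 3.85) and LAMA1 was at 7.09 and 10.1 TPM. Matrix metalloproteinases and their inhibitors were below 0 in 22 of 27 cases, with a median of -0.15. MMP1, the interstitial collagenase, was abundant in both libraries at 13981 and 13575 TPM, while MMP14 was at 33.5 and 18.9 TPM (1.77-fold lower, 1.57 to 2.00).

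Junction and surface genes were lower in several cases without a shift of their lists. DSP, desmoplakin of desmosomes, was at 29.6 and 12.7 TPM (2.34-fold lower, 2.13 to 2.57), and the homophilic adhesion protein MPZL2 at 187 and 86.8 TPM (2.16-fold lower, 2.05 to 2.27). CD200, an immune-inhibitory ligand, was at 10.2 and 2.90 TPM (3.51-fold lower, 2.50 to 5.03). CD14, a co-receptor for bacterial lipopolysaccharide, was at 56.5 and 28.6 TPM (1.98-fold lower, 1.702 to 2.289). Basal keratins KRT14 and KRT17 were higher, at 76.7 and 126 TPM and at 14.3 and 28.5 TPM. Keratin and junction genes as a list had a median of -0.06 with 11 of 27 above 0.

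The 9 signalling lists had medians between -0.09 and 0.19, with single members farther apart. The receptor kinase KIT was at 12.8 and 4.96 TPM (2.57-fold lower, 2.11 to 3.15), being 1 of 25 receptor tyrosine kinases and the only one past 2-fold. WNT5A was at 5.90 and 2.40 TPM (2.46-fold lower, 1.92 to 3.18), being 1 of 22 Wnt genes and the only one past 2-fold. CCN2, a matricellular protein and YAP target, was at 1014 and 1623 TPM (1.60-fold higher, 1.56 to 1.64), a difference of 609 TPM. In the insulin-like growth factor system IGFBP5 was at 57.3 and 95.1 TPM and IGFBP3 at 341 and 205 TPM (1.66-fold lower, 1.60 to 1.72). Of the Notch genes 9 of 13 were above 0, with a median of 0.19, and HES7, HES4 and NOTCH3 were higher by at least 1.5-fold. NOTCH3 was at 3.41 and 5.87 TPM (1.72-fold higher, 1.42 to 2.10).

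**Figure D3:**
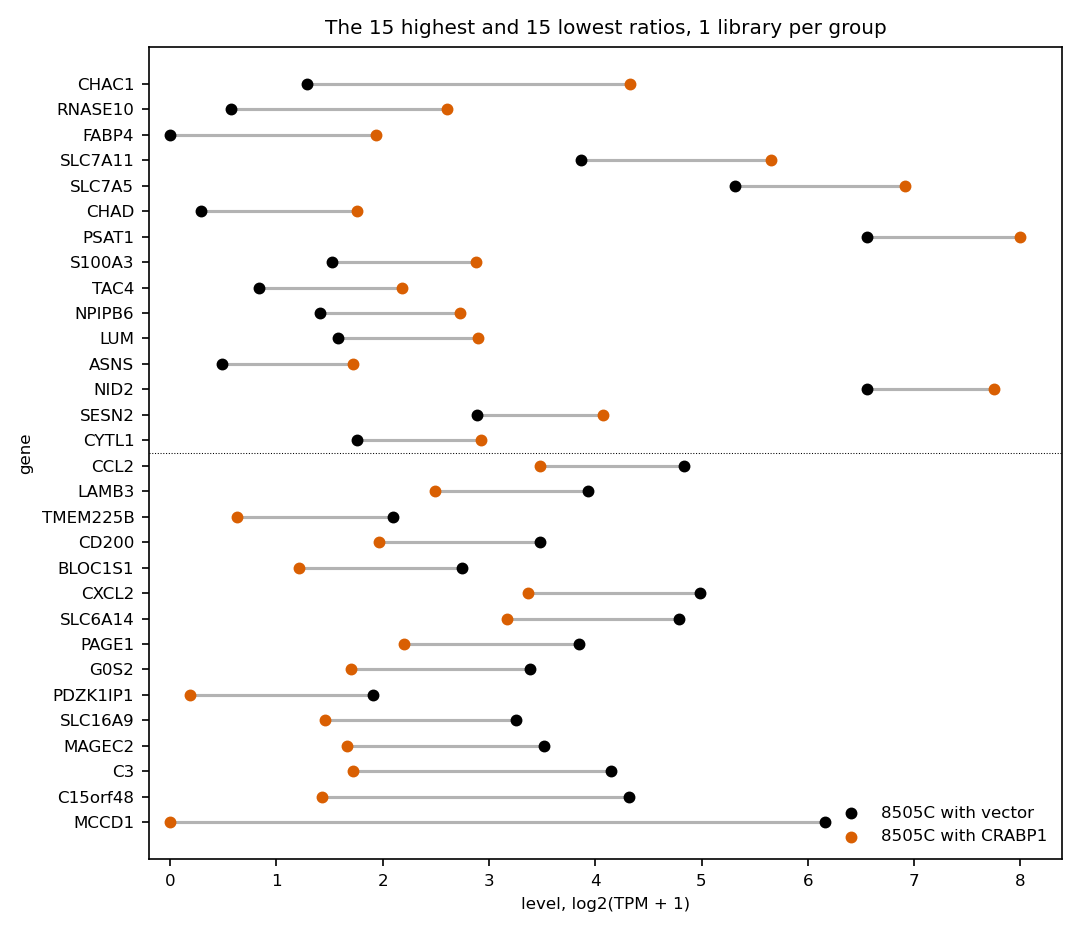
Level as log2 of TPM plus 1 (horizontal axis) of the 15 protein-coding genes with the highest and the 15 with the lowest ratio (vertical axis), black points for the vector library and orange for the CRABP1 library. MCCD1 and FABP4 each reach 0 in 1 of the libraries.

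The gene with the lowest ratio was MCCD1 (chromosome 6, 31528717 to 31530232), a small gene of the major histocompatibility complex. It held 343 reads with vector, 70.6 TPM, and 0 with CRABP1, which puts it at least 114-fold lower than with vector when 3 reads serve as the floor. DDX39B, which ends beside it, was at 69.3 and 66.8 TPM. Of the other genes with the lowest ratios, SLC16A9, a carnitine and monocarboxylate carrier, was at 8.57 and 1.74 TPM (4.93-fold lower, 3.48 to 7.15). Cancer-testis antigens MAGEC2 and PAGE1 were at 10.5 and 2.18 TPM and at 13.4 and 3.59 TPM, and PAGE1 has near-identical copies. PDZK1IP1 had 20 reads with vector and 1 with CRABP1, and TMEM225B 23 and 4. BLOC1S1, at 5.70 and 1.31 TPM, shares 29.8% of its exon bases with other genes. On the higher side RNASE10, TAC4, S100A3 and CYTL1 rest on few reads, 34, 22, 40 and 45 over both libraries. NPIPB6, at 1.66 and 5.63 TPM, is a member of a family of near-identical copies.

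Among the long noncoding RNAs H19, an imprinted RNA, was at 3.8 and 10.96 TPM (2.88-fold higher, 2.12 to 3.98). P3H2-AS1, LINC02802, LINC01266, CARMAL and RANBP3-DT were the others with the highest ratios, and LINC01266, from 92 and 248 reads, was 2.70-fold higher (2.12 to 3.47). The lowest were LINC01472, with 21 reads against 0, SF1-DT, SCAT8, SKAP1-AS2, MIR3142HG and LINC01582. MIR3142HG, the host gene of the NF-kB-responsive miR-146a, was at 7.53 and 2.41 TPM (3.13-fold lower, 2.04 to 4.93). Among abundant transcripts MALAT1, retained in the nucleus, had a log2 ratio of -0.33.

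Several values describe the libraries rather than single pathways. The 37 mitochondrially encoded genes held 26.4% of the TPM with vector and 25.9% with CRABP1, and their 13 protein genes had a median ratio of 0.02. Cytosolic ribosomal protein genes had a median of -0.07 and 24 housekeeping genes -0.08. A pair of annotated chromosome 21 genes that lie inside the 18S ribosomal RNA genes RNA18SN1 and RNA18SN3 were at 408 and 89.5 TPM and at 170 and 30.3 TPM, lower with CRABP1. The signal recognition particle RNAs RN7SL2 and RN7SL1 were at 80.6 and 187 TPM and at 32.9 and 57.4 TPM, higher with CRABP1. Markers of endothelial cells were below 0 in 6 of 6 measured cases, summing to 145 and 123 TPM with CDH5 alone at 103 and 97.9 TPM, and VWF was at 0.17 and 0.038 TPM. Leukocyte markers summed to 58.6 and 30.1 TPM, nearly all of it CD14, with CD3D, MS4A1, CD68, LYZ and TYROBP at 0. Fibroblast markers summed to 71.4 and 87.3 TPM, with 4 of 5 measured above 0, 1 (LUM) past 2-fold upward and a median of 0.39. The part of these in the results above was not tested.

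Ratios also followed position in the genome. Over protein-coding genes that held 20 reads or more, chromosome medians lay between -0.18 and 0.10. Chromosome 21 was lowest, with 91 of 107 genes (85.0%) below 0 and medians between -0.25 and -0.14 in each of its 4 segments of 10 Mb, none of its genes being past 2-fold. APP, the amyloid precursor, was at 1415 and 1189.6 TPM, SOD1 at 216 and 196 TPM and TTC3 at 103 and 84.1 TPM. The inositol transporter SLC5A3 and the protease ADAMTS1, both lower with CRABP1, lie on this chromosome, at 138 and 72.4 TPM and at 70.0 and 40.0 TPM.

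On chromosome 5 ratios differed along the chromosome. Of 92 genes in the first 50 Mb, the side of the short arm, 77 (83.7%) were above 0 with a median of 0.25, against 235 of 455 (51.6%) and a median of 0.00 beyond. The limit of 50 Mb was set after the values were seen. Among 226 segments of 10 Mb with at least 20 such genes, medians ran from -0.19 to 0.29, the highest being the first segment of chromosome 5. TARS1, HMGCS1 and LIFR, described above, lie in this stretch, as does the telomerase gene TERT at 1.45 and 2.61 TPM. Others there were CCT5 at 333 and 445 TPM, NUP155 at 72.9 and 105 TPM and TRIP13 at 105 and 144 TPM. In FTC-133 the same stretch had a median of 0.04 and chromosome 21 one of 0.14.

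**Figure D4:**
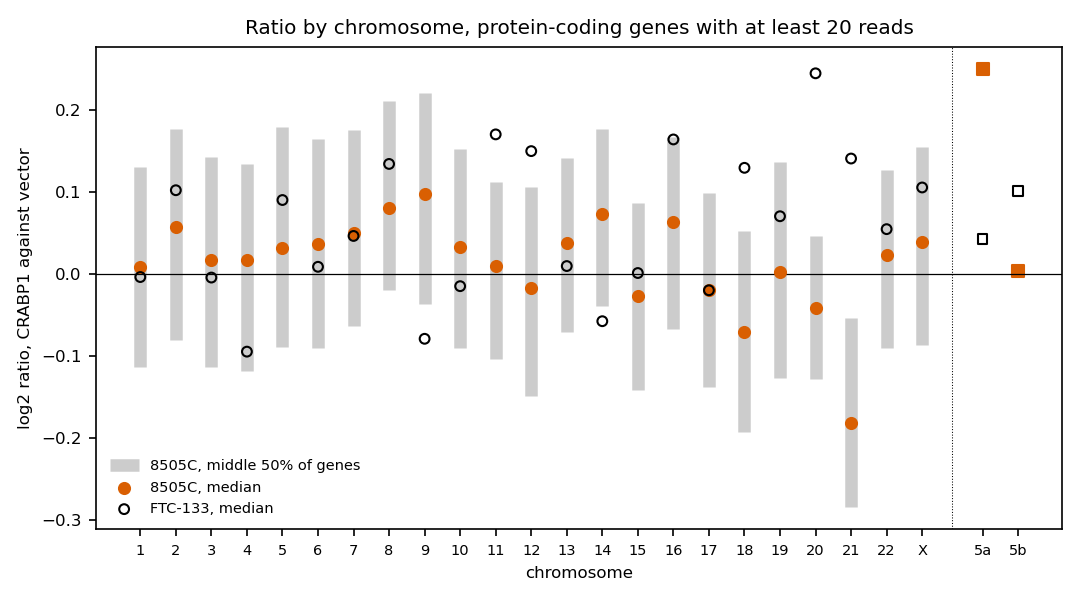
Median log2 ratio of protein-coding genes that held 20 reads or more (vertical axis) by chromosome (horizontal axis), orange for 8505C, open symbols for FTC-133, and grey bars for the middle 50% of genes in 8505C; squares 5a and 5b are chromosome 5 up to and beyond 50 Mb. In 8505C chromosome 21 lies at -0.18 and 5a at 0.25, and in FTC-133 chromosome 20 lies at 0.245.

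FTC-133 was set beside 8505C, each comparison having its own vector library and none being shared. In FTC-133 both the genes higher and the genes lower in 8505C lay mostly above 0, as did protein-coding genes in general. Over 12769 protein-coding genes that held 20 reads or more in FTC-133, 58.1% were above 0, 2.06% at least 2-fold higher and 1.46% at least 2-fold lower, with a median of 0.06. Of the 28 higher in 8505C, 18 were measured from at least 20 reads in FTC-133, and 13 of these were above 0 there, 0 past 2-fold, with a median of 0.31. Of the 60 lower in 8505C, 42 were so measured and 27 were above 0 in FTC-133, 9 of them past 2-fold upward and 1, PAGE1, past 2-fold downward, with a median of 0.25. CHAC1, at 1.44 TPM in the vector library of 8505C, was at 50.1 TPM in that of FTC-133 and 56.2 TPM with CRABP1. SESN2 was at 60.8 and 95.9 TPM and ASNS at 13.1 and 20.7 TPM there. With CRABP1, SESN2 and ASNS in 8505C were below their levels in the vector library of FTC-133. SLC7A11, at 79.6 and 115 TPM, SLC7A5, at 76.5 and 139 TPM, and PSAT1, at 267 and 458 TPM, were also higher with CRABP1 in FTC-133. Of the 18 measured there, 5 were below 0. SLC6A14, CD14 and DSP, lower in 8505C, were at or below 0.768 TPM in both libraries of FTC-133.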

How the data were processed

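RNA was extracted from 4 thyroid cancer cell libraries, 1 for each line and vector, with Trizol, per the labels' protocols. Per the submitters' processing notes, reads were handled with FastQC, Trimmomatic 0.38 and featureCounts 2.0.0 on GRCh38. Which aligner, annotation and strand setting were used is not given in the sources used here. The values deposited by the authors are TPM for 58884 genes, of which 58472 matched the gene name table, and 0 columns matched no sample.

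TPM were multiplied by exon lengths of GENCODE release 29, which held 58611 of the gene IDs, to recover reads. Of values up to 50 reads 90.5% came within 0.02 of a whole number, and 74.2% and 74.1% of all values did. The libraries of 8505C recovered 19174557 reads with vector and 19304250 with CRABP1. Ratios used a pseudocount of 1 TPM genes averaging 1 TPM or more and a 2-fold threshold. A floor of 3 reads stands for a count of 0. No replicates exist, so nothing was tested. Ratios and intervals were tested on simulated data with Python 3.11.15, pandas 2.3.3, NumPy 2.4.6, SciPy 1.17.1 and matplotlib 3.10.9. Alternatives covered the pseudocount, filters, threshold, scaling and mitochondrial genes.

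Genes were named by rule. Among protein-coding genes of 20 reads or more these were the 15 highest and lowest, the 8 highest and lowest from 30 TPM, and the 8 largest differences in TPM each way. The 6 highest and lowest long noncoding RNAs and up to 5 members each way of 60 lists were added. Members and lists were chosen with earlier results of these data known. Genes of the chromosome 5 and 21 sections, the comparison with DDX39B, and both motifs were chosen after values were seen. Sequences are from RefSeq, GRCh38.p14. A few genes are not reported here.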

Additional observations from a re-analysis of the deposited data

Results flagged for a closer look

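In 9 genes at least 2-fold lower with CRABP1 in 8505C, the ratio in FTC-133 was at least 2-fold higher. The difference between the lines was not tested, each line having 1 library per vector. The difference, given as the log2 ratio in FTC-133 minus that in 8505C, was 4.85 for C3, which was at 5.56 and 34.2 TPM in FTC-133 with vector and CRABP1. It was 3.74 for CXCL2, at 70.9 and 312 TPM there, 3.21 for CXCL1, at 189 and 781 TPM, and 2.76 for CCL2, at 0.647 and 3.34 TPM. CXCL8, at 203 and 1834 TPM in FTC-133, did not reach the threshold in 8505C, where its log2 ratio was -0.92. Further values were 3.57 for CD200, at 0.553 and 5.45 TPM in FTC-133, and 2.98 for the hyaluronan-degrading CEMIP, at 2.92 and 12.3 TPM. The laminin chain LAMB3 gave 2.63 at 22.8 and 53.5 TPM, the hexosamine enzyme GFPT2 2.30 at 11.01 and 23.9 TPM, and C1R 2.11 at 4.63 and 10.7 TPM. In 8505C, GFPT2 was at 15.8 and 6.06 TPM.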

How the results depend on the processing

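Genes at least 2-fold higher and lower numbered 649 and 715 as reported, 1117 and 1162 with no filter on low values, and 97 and 121 at a mean of at least 5 TPM. They numbered 29 and 60 over protein-coding genes with at least 20 reads, and 1297 and 1341 at 1.5-fold. With a pseudocount of 0.1 the counts were 899 and 985, with mitochondrially encoded genes removed 958 and 1021, and with median-ratio scaling 642 and 721. The median of the amino acid transporters was 0.24 and became 0.0685 with no filter, and the mean of the cytosolic synthetases was 0.26 against their median of 0.17. Among lists with a main median at least 0.1 from 0, S100 proteins (-0.0040) and fibroblast markers (-0.13) changed sign at a mean of at least 5 TPM. HOX genes did so with mitochondrially encoded genes removed (-0.0561). The cause of these was not tested. The log2 ratio of CRABP1, 9.07, was 12.39 with a pseudocount of 0.1, 9.06 with median-ratio scaling and 9.50 with mitochondrially encoded genes removed. Of 200 other values for 69 named genes 180 moved by less than counting error, 20 by more and 0 changed sign. Of 418 for the 60 lists 403 stayed near the main value, 12 moved and 3 changed sign from a main median at least 0.1 from 0. Near means within the median half-width of the members' counting intervals in log2, a wide limit where members are low. The chemokine median of -0.99 counted as near at -0.70 with no filter and at -1.27 with a mean of at least 5 TPM. Sign changes from a median nearer 0 were not counted. The median of p53 targets, for example, was 0.045 and became -0.0397 at a mean of at least 5 TPM. Counts under 20 reads limit the low genes, and no setting supplies the missing replicates. No paired analysis was possible because each group holds 1 library.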

Other observations

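Surface and immune ligand genes had a median of 0.08, with 15 of 27 above 0, near the 54.8% of all protein-coding genes held to 20 reads. The checkpoint ligand CD274 was at 97.4 and 134.9 TPM, the vector library standing first here (log2 ratio 0.47). Among ligands of the activating receptor NKG2D, chosen after their values were seen, MICB was at 34.4 and 48.3 TPM, MICA at 34.0 and 40.1 TPM and ULBP2 at 14.9 and 20.1 TPM. MUC1 was at 12.2 and 7.86 TPM. Of the BCL2 family 7 of 14 were above 0, with a median of -0.01. BMF, which promotes cell death, was the exception in size, at 28.2 and 14.48 TPM, while MCL1 was at 417 and 396 TPM.

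Pregnancy-specific glycoproteins, a family of close copies, were listed with placental hormone subunits, and 4 of 6 measured members were above 0, with a median of 0.15. PSG5 was at 11.9 and 24.95 TPM, PSG6 at 14.49 and 27.9 TPM and PSG1 at 113 and 117 TPM, while the lowest log2 ratio of the list was -0.72, for CGA. Cancer-testis antigens lay on both sides of 0, 8 of 19 above, with MAGEA1 at 5.06 and 11.6 TPM and MAGEB2 at 26.7 and 42.3 TPM. Among HOX genes 5 of 10 were above 0, and the posterior members HOXB9, at 3.88 and 6.79 TPM, HOXC9, at 2.24 and 4.14 TPM, and HOXC10, at 2.49 and 4.41 TPM, had the highest ratios. The median of the HOX list changed sign with mitochondrially encoded genes removed. S100 proteins had a median of 0.13, which turned negative at a mean of at least 5 TPM, and the abundant member S100A6 was at 2100 and 1875 TPM. The imprinted gene NNAT was at 4.73 and 1.78 TPM, and MEST was at 6.81 and 10.7 TPM.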
